A study of Mus musculus with 7 samples.

Results

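The BCL2 family genes measured here are those for the BH3-only proteins NOXA (Pmaip1), PUMA (Bbc3), BIM (Bcl2l11), BMF (Bmf) and BID (Bid), the pore-forming proteins BAX (Bax) and BAK (Bak1), and the survival proteins BCL2 (Bcl2), BCL-XL (Bcl2l1) and MCL1 (Mcl1). They were chosen by name: every probe of the array design whose gene name is one of these symbols was taken, whatever its signal. That gave 10 of the 36373 genes named on the array, by 12 of its 55681 probes, 1 spot each. All samples came from limbs of mouse embryos on a C57/Bl6 background, aged embryonic day 11.5, and the labels name no genetic change or treatment. For 3 arrays the apical ectodermal ridge (AER), an epithelial thickening along the distal edge of the limb, was cut out of forelimbs, and surface ectoderm of the posterior limb served as the comparison on 4 arrays. Each array was hybridised with Cy3-labelled RNA of a pool of 2 to 3 mice.

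Proteins of this family decide whether the outer membrane of the mitochondrion is opened. BH3-only proteins are made or released under stress and bind the survival proteins, some of them also BAX and BAK, which then form pores through which cytochrome c leaves and caspases are switched on. In the limb bud, cells of the ridge are known to die in number during normal development, and the ridge regresses once outgrowth is complete.

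All 12 probes were well above background on all 7 arrays, 0 were saturated and 0 had a spot called uneven or outlying. No member was removed by the filter on dim probes. A level is given below as relative signal, which is the processed signal divided by the 75th percentile of the same array, so that 1 is the 75th percentile. Levels of different probes cannot be compared, since each probe has its own brightness per RNA molecule. The sequences of 3 probes known to lie in protein-coding sequence, as the scanner files give them, are printed here 5′ to 3′ to show which stretch of each message was read. The Bcl2l11 probe is placed by the files on mm9 chromosome 2 from 127972893 to 127983988 on the plus strand, an extent of 11096 bases for a 60-base probe, so it spans a splice junction. Its capitals, bases 6 to 17, are the codons of the core of the BH3 domain, the stretch with which BIM binds its partners. The Bcl2 probe lies on chromosome 1 from 108608970 to 108609029 on the minus strand, and the dimmer Bcl2l1 probe on chromosome 2 from 152655185 to 152655244 on the minus strand. No capitals are used in these 2.
Bcl2l11: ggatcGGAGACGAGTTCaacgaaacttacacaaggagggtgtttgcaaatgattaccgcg
Bcl2: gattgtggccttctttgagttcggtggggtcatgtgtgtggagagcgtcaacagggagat
Bcl2l1: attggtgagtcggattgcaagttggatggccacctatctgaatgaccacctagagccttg

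As a measure of brightness, the 75th percentiles were 341 to 563 units for AER and 257 to 444 units for ectoderm. All 8 AER markers, Fgf8 among them, were higher in AER, and so were 10 of 11 pan-epithelial markers (median log2 difference 1.77). Of the limb mesenchyme markers 7 of 9 were lower in AER, as were 5 of 5 measured muscle progenitor markers. The mean of the mesenchyme markers was 3.05 to 3.35 in AER and 4.83 to 5.15 in ectoderm (log2 relative signal), and that of the muscle markers was -4.65 to -2.90 in AER and 0.68 to 1.41 in ectoderm, so both sets were detected more in the samples labelled ectoderm. Endothelial, macrophage and erythroid markers, 5 measured genes each, and 3 neural crest markers had 0 past limma's test, and at an unadjusted p under 0.05 there were 0, 0, 2 and 2. Fewer cells of a type and less RNA per cell cannot be told apart in such samples, and the part of cell makeup in the differences below was not tested.

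The study sought a signature of the AER by setting it against posterior ectoderm. Of the 10 genes, Pmaip1 was higher in AER, 7.07-fold, and 0 were lower. The other 9 did not pass the test, with fitted differences from 0.758-fold to 1.37-fold and adjusted p from 0.160 to 0.842 (limma's moderated test, Benjamini-Hochberg over 20823 genes). Among all genes tested 15.7% passed, 7.03% higher and 8.65% lower in AER. A count of 1 in 10 is near that background, so it is no result about the family as a group. The median log2 difference was 0.15 over the 10 genes and -0.08 over all genes tested.

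**Figure D1:**
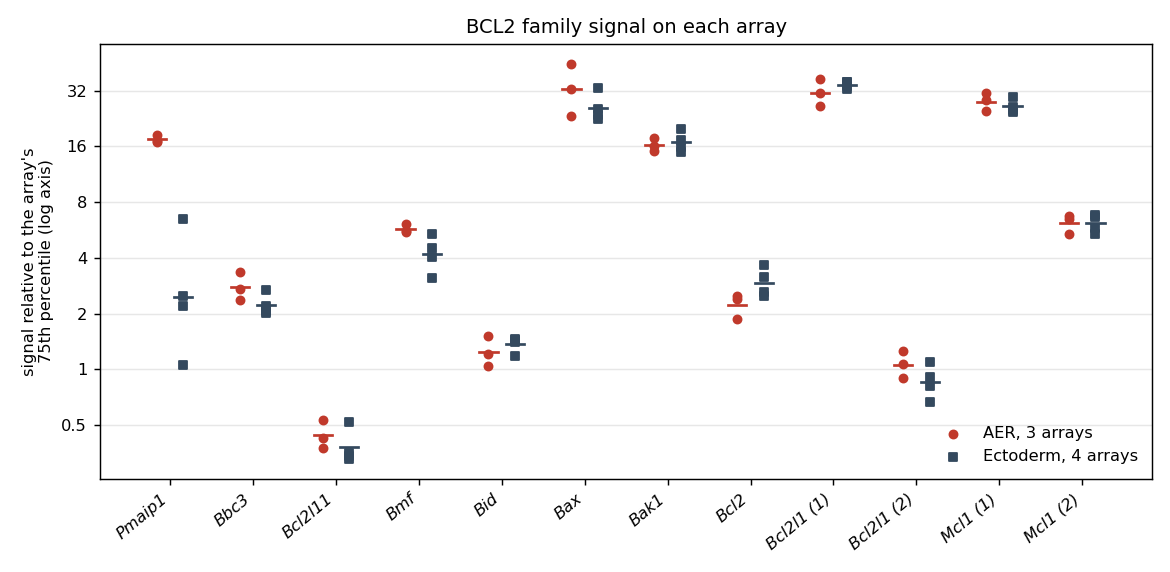
Relative signal of each of the 12 probes on each array (log axis; 1 is the 75th percentile of the array), with AER arrays as red circles left of ectoderm arrays as dark squares and short lines at the mean of the log2 values. Genes with 2 probes are numbered, (1) being the brighter. Pmaip1 has its 3 AER arrays at 16.9 to 18.5 and its 4 ectoderm arrays spread from 1.06 to 6.46, and the other probes lie at similar heights in both groups.

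Pmaip1 encodes NOXA, a BH3-only protein that binds mainly MCL1 and is a known target of p53. Its relative signal was 17.0, 18.5 and 16.9 on AER replicates 1 to 3, against 1.06, 2.48, 6.46 and 2.20 on ectoderm replicates 1 to 4. Every AER array was above every ectoderm array, with a wide gap to the nearest. The log2 relative signal averaged 4.13 ± 0.07 in AER (SD, n = 3) and 1.31 ± 1.07 in ectoderm (SD, n = 4). The AER pools were thus close together, and nearly all of the spread lay among the ectoderm pools. The log2 difference was 2.82 with an SE of 0.50, or 7.07-fold (95% CI 3.19 to 15.7; adjusted p = 0.00602). It was the 137th largest fitted rise of 20823 genes. A single probe on chromosome 18 represents the gene, so no second probe is at hand for comparison.

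Ectoderm replicate 3, the array with the highest Pmaip1 in its group, also had the highest AER markers of its group. Fgf8, the fibroblast growth factor of the ridge, had a relative signal of 57.4, 86.1 and 92.9 on AER replicates 1 to 3, against 0.200, 0.374, 4.58 and 0.379 on ectoderm replicates 1 to 4. The mean of the 8 AER markers was -0.52 on ectoderm replicate 3 and -2.51 to -2.02 on the other ectoderm arrays (log2 relative signal). Ectoderm replicate 1 was lowest for both Pmaip1 and Fgf8. Without ectoderm replicate 3 the log2 difference of Pmaip1 was 3.28 (adjusted p = 0.000313), and without ectoderm replicate 1 it was 2.41 (adjusted p = 0.00578). Whether ridge tissue in the ectoderm samples sets their Pmaip1 level was not tested.

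The 3 genes whose profile over the 7 arrays came closest to that of Pmaip1, by the root mean square difference between profiles centred on their own mean, were Padi3 (0.200 on the log2 scale), Lhx2 (0.249) and Hoxc9 (0.299). Lhx2, a LIM homeobox gene, had a relative signal of 50.1, 48.7 and 36.8 in AER, against 2.99, 6.64, 11.1 and 5.46 in ectoderm. Padi3, for an enzyme that converts arginine in proteins to citrulline, had 2.51, 3.23 and 2.80 in AER, against 0.213, 0.335, 0.865 and 0.324 in ectoderm. The homeobox gene Hoxc9 had 5.32, 5.61 and 4.46 in AER, against 0.414, 0.566, 1.27 and 0.636 in ectoderm. Within ectoderm, replicate 1 was lowest and replicate 3 highest for all 3, which their selection by likeness to Pmaip1 favours.

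**Figure D2:**
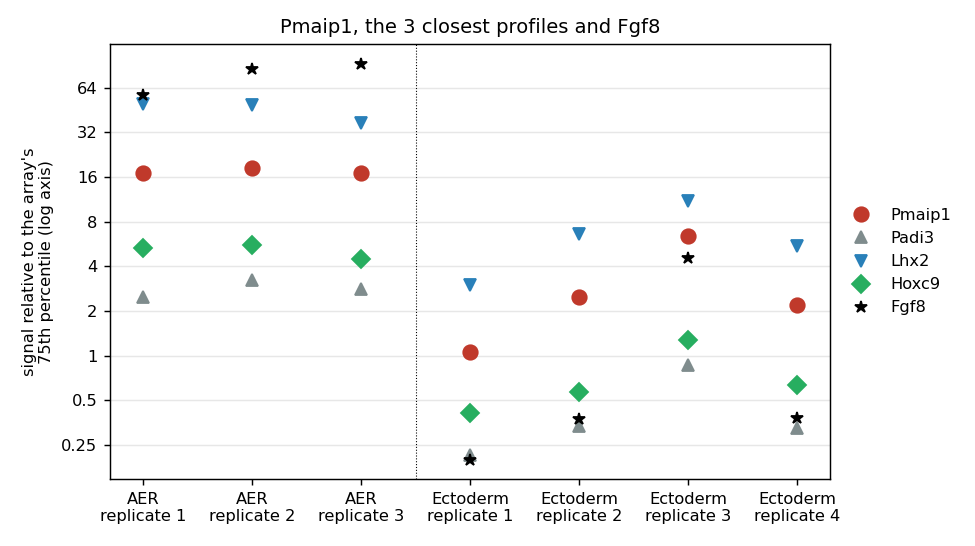
Relative signal (log axis) of Pmaip1, of the 3 genes with the closest profiles and of Fgf8 on each of the 3 AER and 4 ectoderm arrays, 1 point per gene and array. Each of the 5 genes is lowest on ectoderm replicate 1 and, within the ectoderm group, highest on ectoderm replicate 3.

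The rise of Pmaip1 kept its sign under all 22 alternatives. Of these, 2 gave the same values and are counted separately: the authors' processed values, and normexp with quantile normalization. Every AER array lay above every ectoderm array, so alternatives that only leave out, average, weight or block arrays could not turn the sign. Pan-epithelial markers were themselves higher in AER. With each array centred on their mean, the log2 difference of Pmaip1 was 1.07 (adjusted p = 0.0372), against 2.82 as reported. That centring called 20052 of 20823 genes (190 higher), so the adjustment over genes corrects little there. It moved the median of all genes from -0.08 to -1.84. Relative to that median, by construction, differences between genes do not change. Both rows of the slide held arrays of both groups. Within row 1, with AER replicate 1 against ectoderm replicates 1 to 3, the difference was 2.73. Within row 2, with AER replicates 2 and 3 against ectoderm replicate 4, it was 3.00. No p is given for either row, since a single array cannot show the spread between pools of its group.

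**Figure D3:**
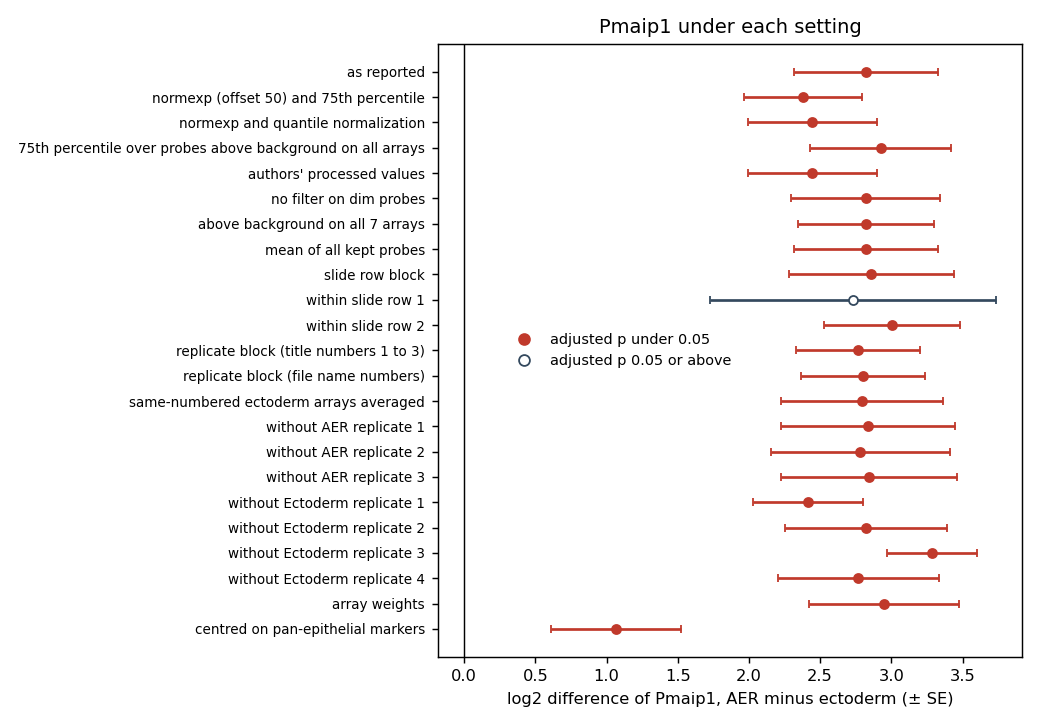
Log2 difference of Pmaip1, AER minus ectoderm, with its SE, as reported and under 22 alternatives, 1 per line. Filled red points have an adjusted p under 0.05. The values run from 1.07 with pan-epithelial centring to 3.28 without ectoderm replicate 3, and the comparison within slide row 1 is the open point. Each slide row has 1 array in one of the groups, so no call is drawn from the points within rows.

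None of the other BH3-only genes passed the test as reported. Bmf, whose product is held at the cytoskeleton in healthy cells, had a relative signal of 5.54, 6.07 and 5.62 in AER, against 3.11, 5.40, 4.06 and 4.51 in ectoderm. The groups did not overlap, though AER replicate 1 and ectoderm replicate 2 almost met. Its difference was 1.37-fold (95% CI 1.00 to 1.87), and the adjusted p was 0.160. Its call did not change under the alternatives other than pan-epithelial centring. With the authors' processed values, though, it came close to the threshold, at a log2 difference of 0.57 (adjusted p = 0.0513), against 0.45 as reported. Bmf and Pmaip1 were the 2 genes of 10 whose groups did not overlap, while 30.3% of all genes tested had groups that did not overlap.

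Bbc3 encodes PUMA, a strong binder of all the survival proteins and a second p53 target. Its relative signal was 3.34, 2.71 and 2.38 in AER, against 2.08, 2.02, 2.67 and 2.19 in ectoderm. Ectoderm replicate 3 lay within the AER range. The difference was 1.25-fold (95% CI 0.947 to 1.65; adjusted p = 0.248). So the interval leaves room for a rise of Bbc3 up to 1.65-fold, below the lower bound for Pmaip1.

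Bcl2l11 encodes BIM, which binds every survival protein and is under FOXO control. The spliced sequence printed above gave a relative signal of 0.529, 0.376 and 0.427 in AER, against 0.355, 0.329, 0.518 and 0.339 in ectoderm. One array in each group, AER replicate 1 and ectoderm replicate 3, stood above the rest. The difference was 1.16-fold (95% CI 0.836 to 1.61; adjusted p = 0.507). Its processed signal was low, at 168 to 212 units in AER and 117 to 146 units in ectoderm.

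Bid encodes the protein that caspase-8 cleaves to link death receptors to mitochondria. It had 1.21, 1.51 and 1.04 in AER, against 1.40, 1.46, 1.18 and 1.45 in ectoderm (relative signal). The ectoderm arrays lay inside the range of the AER arrays. A difference of 0.910-fold was fitted (95% CI 0.693 to 1.20; adjusted p = 0.624).

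The pore-forming genes did not pass the test. Bax had 44.7, 32.7 and 23.5 in AER, against 25.5, 22.5, 33.2 and 23.7 in ectoderm (relative signal). Its AER arrays spread most of all members, with an SD of 0.47 on the log2 scale. AER replicates 2 and 3 lay within the range of the ectoderm values. That gave a difference of 1.25-fold with a wide interval (95% CI 0.857 to 1.84; adjusted p = 0.382). Bak1 was steadier, with 17.7, 15.1 and 16.2 in AER, against 15.0, 17.4, 15.8 and 19.7 in ectoderm. Its groups overlapped throughout, at 0.963-fold (95% CI 0.755 to 1.23; adjusted p = 0.842). The product, BAK, sits in the mitochondrial membrane already before a death signal. For Bak1 RNA, a change beyond 1.23-fold up or 0.755-fold down lies outside this interval, which holds for this processing alone. On the log2 scale the interval ends at 0.30, and with the authors' processed values the fitted difference was 0.31 (adjusted p = 0.18).

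Among the survival genes, Bcl2 had the lowest fitted difference of the family. Its relative signal was 2.48, 1.88 and 2.39 in AER, against 3.65, 2.48, 3.16 and 2.62 in ectoderm. AER replicate 1 and ectoderm replicate 2 met at 2.48, and otherwise the ectoderm arrays were higher. The difference was 0.758-fold (95% CI 0.563 to 1.02; adjusted p = 0.192). Its fitted value stayed below 0 on the log2 scale under all 22 alternatives, from -2.15 to -0.14.

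Mcl1, the short-lived survival protein gene whose product NOXA binds, was measured by a pair of probes. The brighter one had 31.2, 24.7 and 28.4 in AER, against 24.6, 25.1, 29.6 and 26.2 in ectoderm (relative signal). Values of the groups were interleaved. This gave 1.06-fold (95% CI 0.839 to 1.35; adjusted p = 0.723). The dimmer Mcl1 probe gave 1.00-fold (95% CI 0.777 to 1.30; adjusted p = 0.984 over 28276 probes, of which 15.0% passed, 6.97% higher and 8.02% lower). Both intervals lie below the lower bound of 3.19-fold for Pmaip1.

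Bcl2l1 encodes BCL-XL, a survival protein with a longer life, and its probes differed in sign. The brighter probe had 36.9, 31.1 and 26.6 in AER, against 33.8, 35.7, 35.5 and 32.6 in ectoderm (relative signal), or 0.909-fold (95% CI 0.712 to 1.16; adjusted p = 0.575). The coding probe printed above had 0.894, 1.25 and 1.07 in AER, against 1.09, 0.808, 0.914 and 0.665 in ectoderm, or 1.24-fold (95% CI 0.893 to 1.72; adjusted p = 0.345 over probes). AER replicate 1 was highest with the one and lowest of its group with the other. The gap between the probes, the coding one minus the brighter one, averaged -4.88 in AER and -5.33 in ectoderm on the log2 scale (exact permutation test, two-sided, p = 0.171, and 0.342 adjusted over the 2 genes with a pair of probes; the smallest possible p is 0.0571). With normexp background correction the gene, by its brighter probe, gave a log2 difference of -0.52 and passed the test (adjusted p = 0.0425) when scaled to the 75th percentile, and with the authors' processed values, which use normexp and quantile normalization, it gave -0.39 and did not pass (adjusted p = 0.0691).

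**Figure D4:**
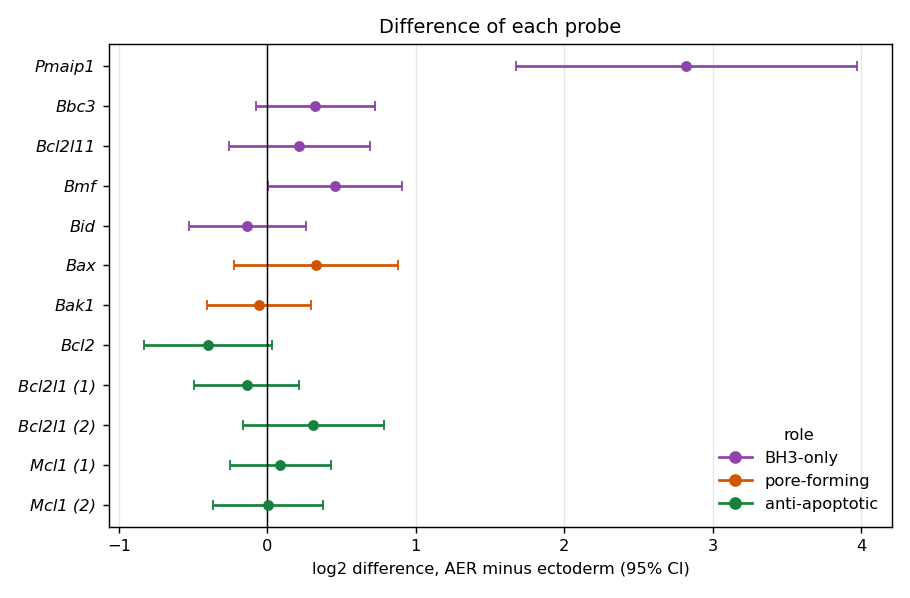
Log2 difference between AER and ectoderm for each of the 12 probes with its 95% confidence interval, coloured by role. The interval of Pmaip1 runs from 1.67 to 3.97 and that of Bmf starts just above 0, while the other 10 intervals include 0.

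Spread between pools differed among the members. In ectoderm the SD of Pmaip1 was 1.07 (log2, n = 4), against 0.06 to 0.33 for the other 9 genes, each by its brighter probe. In AER it was 0.07 (n = 3), against 0.07 to 0.47 for those 9. Bax, Bbc3, Bcl2l11 and Mcl1, the last by both of its probes, were each highest on AER replicate 1 within AER and on ectoderm replicate 3 within ectoderm. These 2 arrays had the lowest 75th percentiles of their groups, 341 and 257 units, and the part of that in their values was not tested. Among the 9 genes that did not pass, the highest upper end of an interval was 1.87-fold (Bmf) and the lowest lower end was 0.563-fold (Bcl2). With the authors' processed values, fitted log2 differences changed sign for Bid (0.07), Bak1 (0.31) and Mcl1 (-0.23), and that of Bax was 0.0049, none past the test. With normexp and the 75th percentile, Bax was at -0.12 (adjusted p = 0.719).

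Other genes of the mitochondrial and death receptor routes were taken from 6 lists, which were chosen with earlier results of these data known. Over all genes tested 15.7% passed, 7.03% higher and 8.65% lower in AER, and the count of each list is read against that. In lists of this size a count of 0 or 1 is no result about the list as a group. Of 13 other BCL2 family genes 9 could be tested, and 0 passed (0 higher, 0 lower; median log2 difference 0.23, against -0.08 over all genes). At an unadjusted p under 0.05, 2 of these did. The closest to the threshold was Bcl2l2, for the survival protein BCL-W, at 1.59-fold (adjusted p = 0.0523, and 0.0332 with the percentile over probes detected on every array). With the authors' processed values its log2 difference was 0.22 (adjusted p = 0.524), against 0.67 as reported. Bcl2l14 was at 1.93-fold (adjusted p = 0.141), and its ectoderm signal exceeded background on 2 arrays. It passed with replicate numbers as a block, by title (1.12 on the log2 scale, adjusted p = 0.0113) or by scanner file name (1.05, adjusted p = 0.0431). The labels state no pairing by these numbers. Bok, a relative of BAX, was at 1.34-fold (adjusted p = 0.219) and Bnip3l, a mitophagy receptor gene, at 1.18-fold (adjusted p = 0.278).

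Downstream of the mitochondrion, 14 genes of the apoptosome, caspase and IAP list are reported, with 1 higher, 0 lower and 13 not past the test (median -0.07). At an unadjusted p under 0.05 there was also 1. Birc3, an inhibitor of apoptosis gene, was 1.61-fold higher (adjusted p = 0.0376), a call lost or turned under 15 of 22 alternatives, including leaving out any array other than ectoderm replicate 1 (adjusted p from 0.0539 to 0.111). Its signal was dim, at 0.142 to 0.173 in AER and 0.0835 to 0.127 in ectoderm. Apaf1, the scaffold of the apoptosome, was at 0.835-fold, or -0.26 on the log2 scale (adjusted p = 0.256). With the authors' processed values Apaf1 passed at -0.56 (adjusted p = 0.0273), as it did with normexp and the 75th percentile (-0.57, adjusted p = 0.0379). Cycs, for cytochrome c, was at 0.806-fold (adjusted p = 0.211). Birc2, for another inhibitor of apoptosis, was at 1.17-fold (adjusted p = 0.257).

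Death receptor genes had 7 of 11 members tested and 0 past the test in either direction (median 0.01), and 1 had an unadjusted p under 0.05. That gene was Fadd, for the adaptor of the receptors, at 0.750-fold (adjusted p = 0.0766). It passed with the authors' processed values (-0.50 on the log2 scale, adjusted p = 0.0277) and with normexp and the 75th percentile (-0.52, adjusted p = 0.0379). Tnfrsf10b, for a TRAIL receptor, was at 0.832-fold, Ripk1, for a kinase at the receptors, at 1.28-fold and Cflar, an inhibitor of caspase-8, at 1.16-fold, with adjusted p from 0.225 to 0.360. Cflar passed with the authors' processed values (0.38 on the log2 scale, against 0.21 as reported; adjusted p = 0.0458), and Tnfrsf10b was at -0.0052 with them.

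Of the genes for p53 and its targets, 15 of 16 were tested, and 3 were higher, 0 lower and 12 did not pass (median 0.31). Over all genes 15.7% passed and 7.03% were higher, so 3 of 15 is read against that. The 3 were Perp, Sesn2 and Phlda3. Perp, which serves both cell death and desmosomes of stratified epithelium, had 77.8, 57.5 and 94.5 in AER, against 20.1, 30.9, 21.1 and 29.0 in ectoderm, or 3.02-fold higher (adjusted p = 0.00207). Sesn2, a stress-induced regulator of mTORC1, had 5.13, 5.47 and 5.54 in AER, against 2.17, 2.48, 2.95 and 2.97 in ectoderm, or 2.05-fold higher (adjusted p = 0.00291). Phlda3, an inhibitor of AKT, was 1.75-fold higher (adjusted p = 0.0161; 0.0562 with the slide row as a block and 0.0517 with no filter on dim probes). For each the groups did not overlap, as for 30.3% of all genes. Each slide row has 1 array in one of the groups, so no call is drawn from it, and the log2 differences within rows 1 and 2 were 1.72 and 1.34 for Perp, 1.03 and 0.89 for Sesn2, and 0.86 and 0.62 for Phlda3. Under pan-epithelial centring all 3 turned below 0 on the log2 scale, to -0.16 for Perp, -0.72 for Sesn2 and -0.94 for Phlda3, by the same shift that it gives every gene. Aen, a p53-induced nuclease gene, was at 1.54-fold (adjusted p = 0.0841), and it passed with the authors' processed values (0.795 on the log2 scale, adjusted p = 0.0421) and without AER replicate 3 (0.83, adjusted p = 0.0288).

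In the list named other inducers of BH3-only genes, 8 of 8 were tested, with 0 higher and 1 lower (median 0.07). The lower gene was Chac1, which is not itself such an inducer but a glutathione-degrading enzyme gene of the unfolded protein response. It was at 0.274, 0.192 and 0.279 in AER, against 0.360, 0.456, 0.503 and 0.491 in ectoderm. Its log2 difference of -0.87 (adjusted p = 0.0175) no longer passed under 11 of 22 alternatives, including the authors' processed values (-0.44, adjusted p = 0.0535) and leaving out ectoderm replicate 2 (adjusted p = 0.0508) or ectoderm replicate 4 (0.0579). Foxo3, a transcription factor gene upstream of Bcl2l11, was at 1.62-fold (adjusted p = 0.102, and 0.0346 with scanner file name numbers as a block). Atf4 was at 1.57-fold (adjusted p = 0.219, and 0.0324 without AER replicate 3), and Ddit3 was at 0.846-fold (adjusted p = 0.545, and 0.0472 without AER replicate 2). Binding partners and turnover factors of the family, 8 of 8 tested, had 0 past the test in either direction (median -0.10), with 2 at an unadjusted p under 0.05. Dynll1 and Dynll2, for the dynein light chains that tether BIM and BMF, were at 0.694-fold (adjusted p = 0.0857) and 0.843-fold (adjusted p = 0.281). Vdac2, for a channel that holds BAK, was at 0.807-fold (adjusted p = 0.296) and Mtch2, for the receptor of BID, at 0.761-fold (adjusted p = 0.134).

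**Figure D5:**
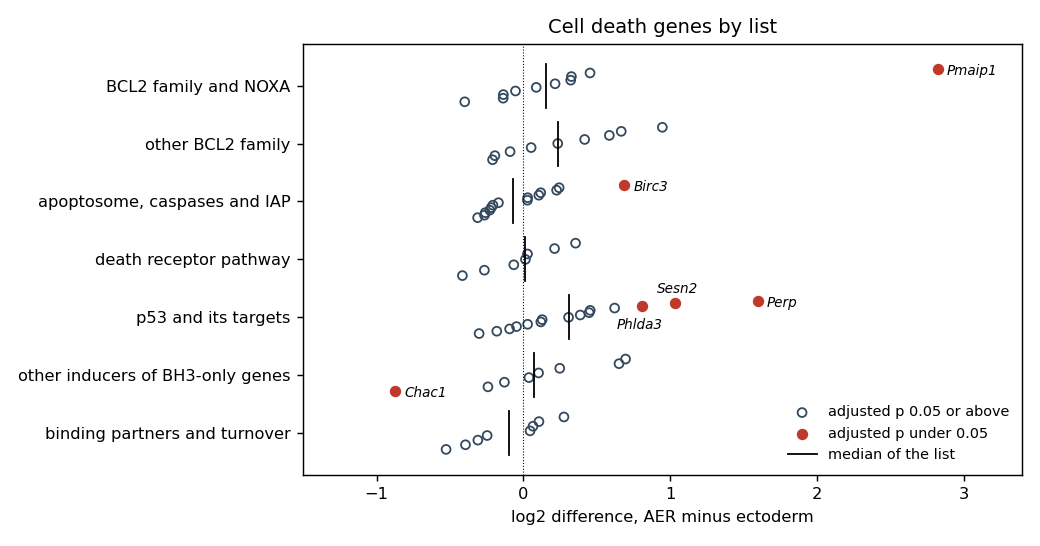
Log2 difference between AER and ectoderm for each reported gene of the 10 family members and of 6 related lists, 1 point per gene, with filled red points for genes past the test and a line at each list's median. Pmaip1, at 2.82, lies to the right of all other genes drawn, and the next is Perp at 1.60.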

How the data were processed

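Per the file headers, the authors' deposited scanner files hold a processed intensity per spot, background-subtracted and detrended within the array by Agilent Feature Extraction 10.7.3.1 and not scaled between arrays, and the mean spot and local background intensity before subtraction. The deposited matrix is on a log2 scale, and it was matched to within 0.000108 by normexp (offset 50) followed by quantile normalization. The submitters' processing notes name limma. Other deposited columns, per the file headers, flag spots as well above background, saturated, uneven or outlying.

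From the scanner files, flagged and control spots were left out, spots of a probe were averaged on the log2 scale, and the 75th percentile of an array's probes, controls aside, was subtracted. Probes well above background on at least 3 of 7 arrays were kept (28276 of 55681, 50.8%). Symbols came from the RefSeq accession (26300 probes), the symbol (2044) or an older symbol (355), and otherwise from the file (26982). Each gene was represented by its probe with the highest mean. AER and ectoderm were compared over all 7 arrays with limma 3.58.1 (lmFit and eBayes) in R 4.3.3, group as the single term, 5 residual degrees of freedom and 3.50 from the prior, with Benjamini-Hochberg adjustment over 20823 genes, or over 28276 probes where said, at a threshold of 0.05. Differences, SEs and intervals of genes come from the gene fit, and those of the dimmer probes from the probe fit. The fit was tested on simulated data. Probe positions are on mm9, and exons and untranslated regions were not looked up. The number of arrays limits the precision, and the p values measure the spread between pools, with each array counted as a separate pool. Figures used Python 3.11.15 and matplotlib 3.10.9.

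Members and lists were chosen with earlier results of these data known. In the lists, 1 gene is not reported here and was left out of its list's counts and median. Genes named are all 10 members, up to 4 genes of each list with the smallest p, Fgf8, and the 3 genes closest to Pmaip1. Alternatives covered background correction, normalization, filters, probe choice, slide rows, pairing, single arrays, array weights and pan-epithelial centring.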

Additional observations from a re-analysis of the deposited data

Results flagged for a closer look

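Of 37 results checked for an array far from the other 3 in ectoderm, 3 stood out, where chance alone marks about 1 group in 20. Bcl2l11 was highest on ectoderm replicate 3 by a gap of 0.8291 of the group's range on the log2 scale, with a relative signal of 0.518 there and 0.329 to 0.355 on the other ectoderm arrays. Bok was highest on the same array, with a gap of 0.8475 on that scale and a relative signal of 9.91 against 5.99 to 6.47. Dynll1 was highest on ectoderm replicate 1, with a gap of 0.9828 and a relative signal of 5.89 against 4.52 to 4.54.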

How the results depend on the processing

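Of 22 alternatives, 19 left 1 of the 10 members past the test. With normexp and the 75th percentile 2 passed, 1 of them lower (Bcl2l1), and within slide row 1 limma called 0, with 0 higher, while 2 had an unadjusted p under 0.05. Within slide row 1, 650 genes passed (238 higher, 412 lower) and 885 probes (323 higher, 562 lower), and within row 2, 1388 genes (546 higher, 842 lower) and 1684 probes (680 higher, 1004 lower), with fewer arrays in each. Each slide row has 1 array in one of the groups, so the spread between pools in these fits comes from the other group alone. The counts within rows, those of members included, are listed for completeness, and no call is drawn from them. As reported, 3264 genes (1463 higher, 1801 lower) and 4240 probes (1971 higher, 2269 lower) passed. Leaving out single arrays gave 2197 to 3273 genes (1019 to 1361 higher, 1178 to 1915 lower), 2821 to 4213 probes (1344 to 1815 higher, 1477 to 2429 lower) and 1 member each time. Of the genes called, 44.8% were higher as reported, 57.4% with the percentile over probes detected on every array (median of all genes 0.02), and 0.948% with pan-epithelial centring.

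Pan-epithelial centring lowers every difference by construction. The median of all genes became -1.84, and it called 20052 genes (190 higher, 19862 lower), 27177 probes (237 higher, 26940 lower) and 10 members (9 lower). It turned these log2 differences below 0: Bbc3 -1.43, Bcl2l11 -1.54, Bmf -1.30, Bax -1.43, Mcl1 -1.67 (its other probe -1.75), the coding Bcl2l1 probe -1.44, Bcl2l2 -1.09, Bok -1.34, Bcl2l14 -0.81, Bnip3l -1.52, Birc2 -1.53, Birc3 -1.07, Ripk1 -1.40, Cflar -1.54, Phlda3 -0.94, Sesn2 -0.72, Aen -1.13, Perp -0.16, Foxo3 -1.06 and Atf4 -1.10.

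The titles share replicate numbers 1 to 3. Deviations of same-numbered arrays correlated at -0.03, 0.19 and 0.13, against -0.26 to 0.18 for AER and ectoderm arrays with different title numbers. Arrays that share a scanner file name number had -0.16, -0.03, 0.05 and 0.13. These values do not settle whether arrays are paired. The labels state no pairing, so the numbers were not taken as pairs. With the replicate block 2441 genes passed, and Pmaip1 differed by 2.77 (adjusted p = 0.00443). Numbers in the names of the scanner files gave 3291 genes and 2.80 for Pmaip1 (adjusted p = 0.00685). Ectoderm replicates 2 and 4 carry the same such number, and their signals correlated at 0.995 across genes, the highest value between arrays. Whether they are a single RNA pool is not known, and they were counted as separate replicates. With these averaged, 2265 genes passed and Pmaip1 differed by 2.80 (adjusted p = 0.0184). With 7 arrays, the changes of the other 9 members within their intervals could not be resolved.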
